A study of Mus musculus with 30 samples.

Results

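Chemokines and their receptors were followed in 2 tissues of C57BL/6J mice, the dorsal root ganglia (DRG), where sensory neurons have their cell bodies, and the hind paw. The members were all genes whose symbol is Ccl, Cxcl, Ccr or Cxcr with a number, together with Cx3cl1, Cx3cr1, Xcl1 and Xcr1. This rule found 53 of the 22609 genes, 34 ligands and 19 receptors. The mice were 10 to 12 weeks old and were injected in the paw with 1 µg of prolactin (PRL), a pituitary hormone, or with vehicle (Veh). RNA was sequenced in 10 groups of 3 libraries: PRL_Sh, PRL and Veh of females and PRL and Veh of males, from each tissue. What Sh means is not explained in the labels. Single and daily injections over 12 days are described, but no sample is assigned to either. Nothing says that replicates came from separate animals, so p-values measure the spread between these libraries, which may be technical.

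Chemokines are small secreted proteins that guide moving cells along gradients. They are classed by the spacing of the first cysteines of the mature protein into CC, CXC, CX3C and C families, and they act on G protein-coupled receptors. A ligand can engage several receptors, and a receptor several ligands. In skin they draw monocytes, neutrophils, eosinophils and lymphocytes out of the blood. In ganglia, Cx3cl1, Ccl2 and Cxcl12 are known for signalling among neurons, glia and macrophages.

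The family-defining cysteine codons are in capitals in the following coding sequences (GENCODE M21 transcripts, GRCm38), given to show what separates the families. Ccl11 and Ccl8 are CC ligands, Cxcl16 and Cxcl10 CXC ligands, Cx3cl1 the CX3C ligand and Xcl1 a C ligand. They were picked after the members' values were seen.
Ccl11: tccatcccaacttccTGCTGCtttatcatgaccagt
Ccl8: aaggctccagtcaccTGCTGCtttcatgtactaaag
Cxcl16: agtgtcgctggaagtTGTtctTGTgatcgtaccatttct
Cxcl10: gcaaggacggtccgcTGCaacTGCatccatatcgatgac
Cx3cl1: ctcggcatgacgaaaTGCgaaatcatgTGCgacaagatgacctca
Xcl1: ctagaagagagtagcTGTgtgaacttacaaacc
Each gene was searched for the spacing of its own family, so the spacing is a definition and not a result. The codons were adjacent in Ccl11 and Ccl8, were 1 codon apart in Cxcl16 and Cxcl10, and were 3 codons apart in Cx3cl1. Xcl1 had a single one in this stretch.

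The 250 bases before the gene start follow for 5 ligands that were higher with PRL in male paw, again picked after values were seen (RefSeq, GRCm38.p6, 5′ to 3′ on the gene's strand). Capitals mark matches to a motif of NF-kB factors, GGG and TTCC with 2 or 3 bases of any kind between them, or of interferon regulatory factors, a direct repeat of GAAA with 2 bases of any kind between the copies.
Ccl8, chr11:82114935-82115184, plus strand: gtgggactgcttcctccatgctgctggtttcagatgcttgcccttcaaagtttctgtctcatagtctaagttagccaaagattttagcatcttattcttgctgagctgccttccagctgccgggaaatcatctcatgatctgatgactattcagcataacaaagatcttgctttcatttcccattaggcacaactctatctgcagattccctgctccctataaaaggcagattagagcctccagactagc
Ccl12, chr11:82101595-82101844, plus strand: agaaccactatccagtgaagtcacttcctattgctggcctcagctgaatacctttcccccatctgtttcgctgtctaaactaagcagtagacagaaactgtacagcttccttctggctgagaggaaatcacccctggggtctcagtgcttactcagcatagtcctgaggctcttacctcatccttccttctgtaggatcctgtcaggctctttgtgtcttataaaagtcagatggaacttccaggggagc
Ccl9, chr11:83578637-83578886, minus strand: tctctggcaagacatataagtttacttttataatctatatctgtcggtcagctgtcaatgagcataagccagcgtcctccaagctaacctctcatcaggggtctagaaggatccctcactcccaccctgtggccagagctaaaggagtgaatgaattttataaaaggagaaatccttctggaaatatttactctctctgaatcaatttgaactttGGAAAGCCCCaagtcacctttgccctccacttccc
Cxcl10, chr5:92348890-92349139, minus strand: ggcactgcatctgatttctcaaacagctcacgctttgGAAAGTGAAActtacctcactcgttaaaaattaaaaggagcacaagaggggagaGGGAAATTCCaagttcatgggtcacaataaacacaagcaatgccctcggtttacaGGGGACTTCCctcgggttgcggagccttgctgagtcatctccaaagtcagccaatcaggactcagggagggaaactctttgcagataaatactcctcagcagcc
Cxcl2, chr5:90903649-90903898, plus strand: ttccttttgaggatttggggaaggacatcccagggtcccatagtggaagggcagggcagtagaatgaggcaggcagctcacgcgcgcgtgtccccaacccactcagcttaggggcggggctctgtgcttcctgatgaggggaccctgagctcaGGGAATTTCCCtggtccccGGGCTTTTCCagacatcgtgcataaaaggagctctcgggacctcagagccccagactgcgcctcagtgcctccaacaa
Searched on both strands, the NF-kB motif was in 10 of 38 member promoters in the RefSeq table (Ccl1, Ccl19, Ccl20, Ccl9, Ccr3, Cxcl1, Cxcl10, Cxcl2, Cxcl3 and Cxcl9) and in 8.26% of all 32851 promoters. Matches of its shorter and longer spacing can overlap. The interferon motif was in 3 of 38 (Ccl19, Cxcl10 and Cxcl14) and in 2.98% of all promoters. Among the 5 printed, Ccl9 and Cxcl2 held the first and Cxcl10 held both. These letters were not found in the windows of Ccl8 and Ccl12, and other forms of the motifs were not searched.

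Gene reads numbered 21.8 to 26.5 M per library in PRL_Sh and 6.87 to 13.5 M in the others. The lowest number was that of male paw Veh replicate 2. In that library 55.5% of reads aligned at several sites, against 41.5 to 44.8% in the other paw PRL and Veh libraries. Reads in genes were 13.6% there, against 22.3 to 26.2%. Levels are CPM, a gene's reads scaled to a library of 1 M gene reads. PRL_Sh libraries were made with an mRNA kit and the others by rRNA depletion. By marker genes the tissues matched their labels: Scn10a, a sodium channel of nociceptors, did not exceed 1.73 CPM in paw, and Krt10, an epidermal keratin, did not exceed 40.7 CPM in DRG. Nnt and Wdfy1, known to differ between the C57BL/6J and C57BL/6N substrains, separated the arms in both tissues. Wdfy1 was at 53.8 to 59.7 CPM in female paw PRL, against 26.7 to 29.9 CPM in female paw Veh, and at 80.7 to 85.4 CPM in male DRG PRL, against 27.6 to 34.9 CPM in male DRG Veh. Nnt was at 35.7 to 62.4 CPM in male paw PRL, against 11.0 to 12.1 CPM in male paw Veh. PRL and this difference between arms cannot be told apart in any PRL comparison.

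Ccl19, a ligand of Ccr7, and Ccl28, a mucosal ligand, had no read in any of the 30 libraries, which allows up to 0.113 to 0.437 CPM per library (3 reads, counting error only). The reference lists near copies of Ccl19, so its reads could be split or lost in counting. Ccl1, Ccl26, Ccr8, Cxcl15, Cxcr1, Cxcr5 and Xcl1 had fewer than 10 reads in every library. Xcl1, the ligand of Xcr1, had 17 reads in all, and Cxcr1, a neutrophil receptor, had 9. After the filter on low counts, 26 ligands and 15 receptors could be tested in paw, and 14 ligands and 8 receptors in DRG.

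Compared per kilobase of exon, Ccl6 was the most abundant ligand in paw PRL, with 87.5 CPM per kb in female PRL, against 38.2 CPM per kb in female Veh. Cxcl14, a chemokine of epithelia, led in paw Veh, with 59.0 CPM per kb in female PRL, against 61.4 CPM per kb in female Veh. In DRG the leading ligand per kilobase was Ccl11, at 25.3 CPM per kb in female PRL, against 19.5 CPM per kb in female Veh. By CPM alone Cxcl12 exceeded Ccl11, at 104.8 CPM against 27.4 CPM in female DRG PRL. These ranks depend on the lengths used. Among receptors, Cxcr7, a scavenger of Cxcl12, led in paw and Cxcr4, the signalling receptor of Cxcl12, led in DRG. Cxcr7 in paw was at 27.0 CPM per kb in female PRL, against 20.2 CPM per kb in female Veh, and Cxcr4 in DRG was at 12.6 CPM per kb in female PRL, against 8.96 CPM per kb in female Veh.

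Added up over the 53 members, the level was 1140 to 1396 CPM in female paw PRL, against 754 to 862 CPM in female paw Veh. In male paw it was 1171 to 1425 CPM in PRL, against 591 to 744 CPM in Veh. These sums did not overlap in paw. In female DRG the sum was 269.8 to 286 CPM in PRL, against 358, 211 and 203 CPM in Veh, so the overlap there rested on Veh replicate 1. In male DRG it was 209 to 290.1 CPM in PRL, against 179 to 211 CPM in Veh, which overlapped.

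**Figure D1:**
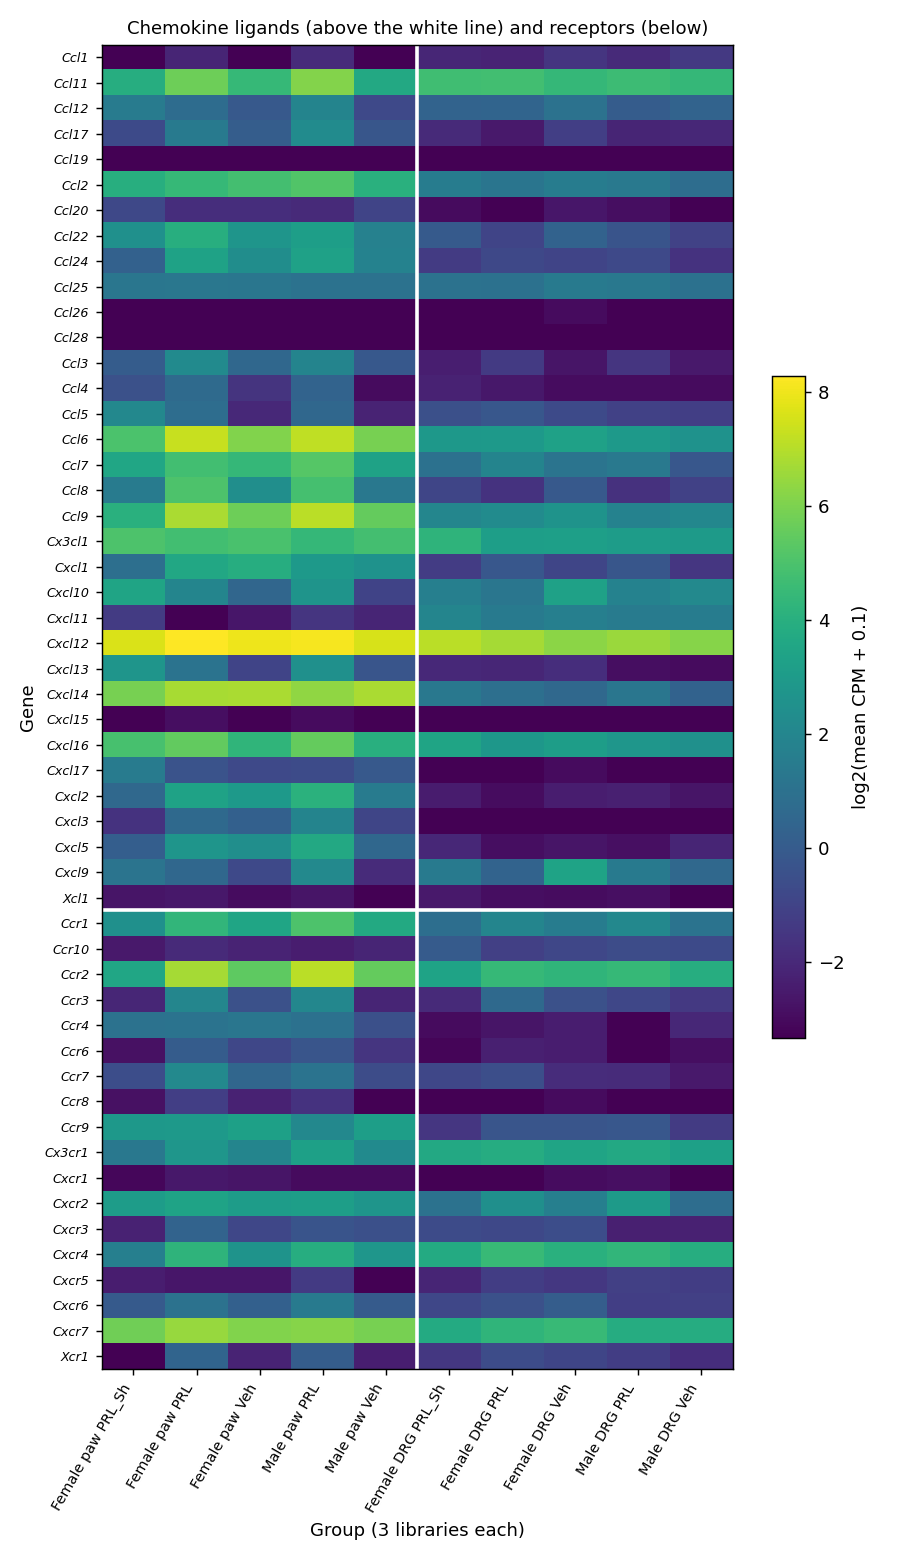
Mean CPM of members in the 10 groups (log2 scale, 0.1 added, 3 libraries a group), ligands above and receptors below the horizontal white line, paw left of the vertical one. Ccl19 and Ccl28 are at 0 in every column.

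In paw, many chemokines and receptors were higher with PRL in both sexes. In females 16 of 41 tested members were higher and 0 lower (edgeR quasi-likelihood test, Benjamini-Hochberg adjusted p under 0.05), where 7.55% of all tested genes were called, 6.54% higher and 1.01% lower. In males 28 were higher and 1 lower, where 22.4% of all were called, 12.3% higher and 10.1% lower. The higher members were 9 ligands and 7 receptors in females and 20 ligands and 8 receptors in males. Among the tested members, Ccl4, Ccl5, Ccr3, Cxcl9 and Xcr1 had few reads with Veh. They passed the filter on low counts mainly through PRL libraries, and their calls in these counts carry that limit. The median log2 change of the tested members was 1.04 in females and 1.56 in males, beside -0.008 and 0.024 over all tested genes. Averaged over the sexes 31 were higher and 1 lower, where 24.9% of all genes were called (14.9% higher, 10% lower). The female count was 9 without PRL replicate 1, 10 without Veh replicate 3 and 9 when only these groups were fitted. Ccl11, Ccl5, Ccl6, Ccl8, Ccl9, Ccr2, Cxcl16 and Cxcr4 were among those called in females in every alternative that tested them.

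Both sexes shared 15 of the higher members, which is 93.8% of the female and 53.6% of the male calls. Over all genes called higher, the shared ones were 82.2% of the female and 43.7% of the male calls. By chromosome, 8 of 12 tested members on chromosome 11, where most CC ligands lie, were higher in females and 11 of 12 in males. Those members also include Cxcl16 and Ccr7, so this is not a count of CC ligands alone. On chromosome 5, which holds many CXC ligands, 0 of 8 were higher in females and 6 of 8 in males. On chromosome 9, which holds many of the receptors, 5 of 9 were higher in females, and 7 of 9 higher and 1 lower in males. Shares of all genes on these chromosomes are not given. A call in one sex alone was not shown to be a difference between the sexes.

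**Figure D2:**
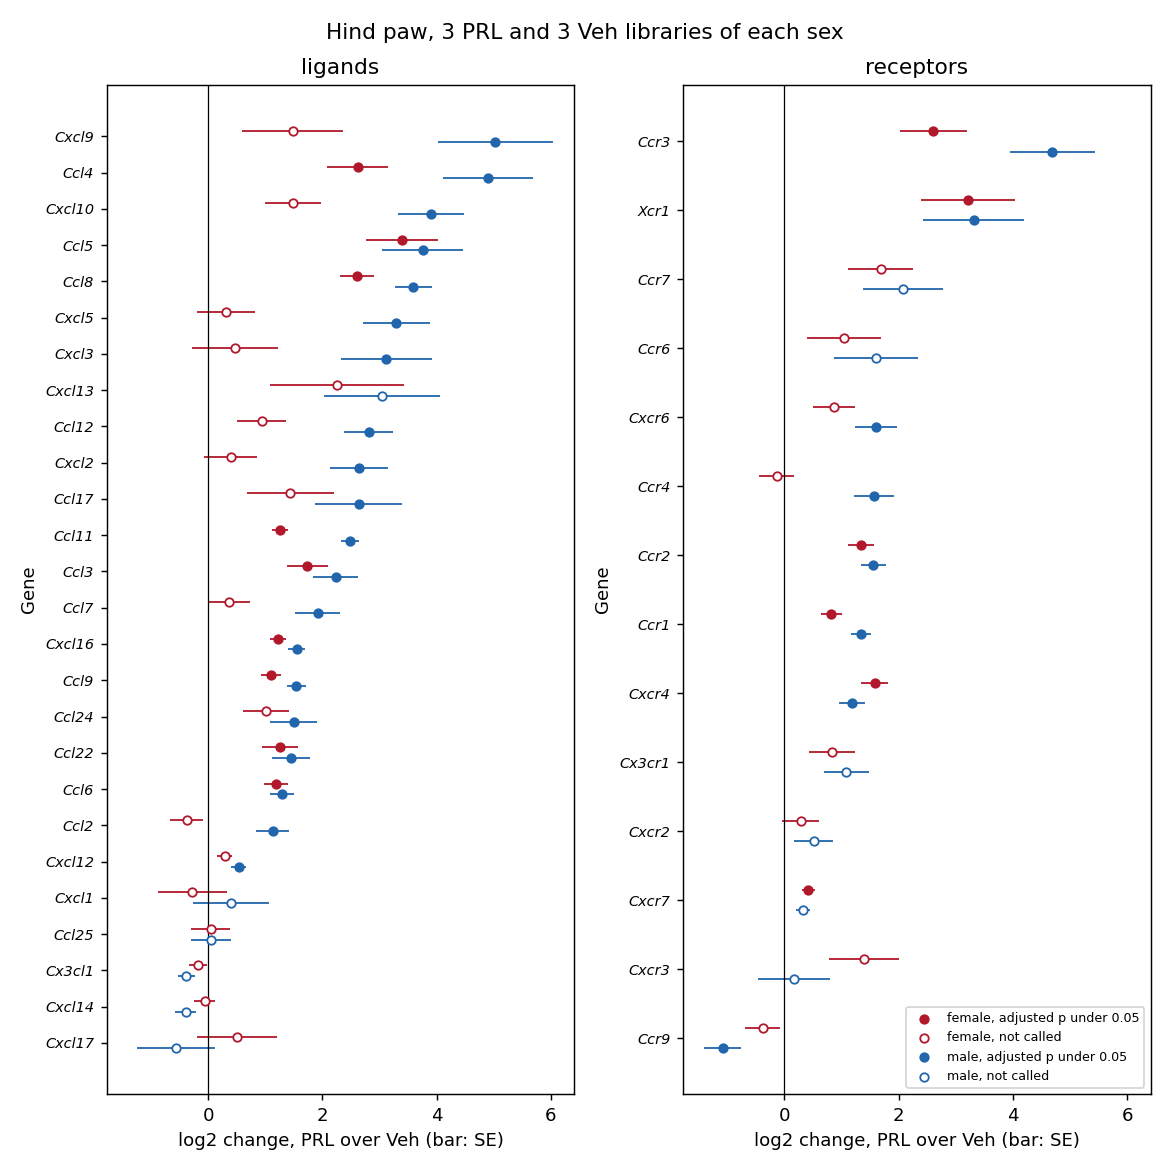
Log2 change of PRL over Veh in paw, with its SE, for tested ligands (left) and receptors (right) in females and males, with filled points where adjusted p was under 0.05. Most points lie right of 0, and Ccr9 is a filled male point left of it.

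The CC ligands that attract monocytes and eosinophils were among the clearest. Ccl8, a monocyte attractant, had 40.3, 19.7 and 37.5 CPM in female PRL, against 5.29, 5.61 and 4.96 CPM in female Veh. Male Ccl8 levels were 25.5, 39.7 and 22.7 CPM in PRL, against 3.49, 1.75 and 1.92 CPM in Veh. The arms of Ccl8 did not overlap in either sex, and its log2 change in edgeR was 2.61 ± 0.30 (adjusted p = 0.00054) in females and 3.59 ± 0.33 (adjusted p = 7.51e-05) in males. Ccl11, the eosinophil attractant eotaxin, had 42.1, 57.2 and 57.4 CPM in female PRL, against 23.3, 19.0 and 23.1 CPM in female Veh. Male Ccl11 levels were 64.7, 81.6 and 66.5 CPM in PRL, against 14.2, 11.7 and 12.8 CPM in Veh. The arms of Ccl11 did not overlap in either sex, and its log2 change in edgeR was 1.26 ± 0.14 (adjusted p = 0.00054) in females and 2.48 ± 0.15 (adjusted p = 1.4e-05) in males.

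Ccl6 and Ccl9, ligands of Ccr1 made by macrophages, stood at high levels in both arms. Ccl6, the more abundant of them, had 202, 136 and 134 CPM in female PRL, against 65.3, 76.0 and 64.1 CPM in female Veh. Male Ccl6 levels were 111, 169 and 149 CPM in PRL, against 55.0, 43.8 and 78.5 CPM in Veh. The arms of Ccl6 did not overlap in either sex, and its log2 change in edgeR was 1.19 ± 0.21 (adjusted p = 0.00419) in females and 1.29 ± 0.21 (adjusted p = 0.00146) in males. Ccl9, its neighbour in the CC cluster, had 128, 110.2 and 98.5 CPM in female PRL, against 50.9, 55.2 and 50.1 CPM in female Veh. Male Ccl9 levels were 94.3, 147 and 159.7 CPM in PRL, against 41.6, 40.6 and 56.6 CPM in Veh. The arms of Ccl9 did not overlap in either sex, and its log2 change in edgeR was 1.10 ± 0.17 (adjusted p = 0.00219) in females and 1.54 ± 0.17 (adjusted p = 0.000177) in males.

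Ccl3, Ccl4 and Ccl5, ligands made by activated leukocytes, had low levels with Veh. Ccl3, a macrophage product, had 6.71, 2.89 and 4.37 CPM in female PRL, against 2.01, 1.31 and 0.843 CPM in female Veh. Male Ccl3 levels were 4.14, 3.16 and 3.86 CPM in PRL, against 0.742, 1.02 and 0.722 CPM in Veh. The arms of Ccl3 did not overlap in either sex, and its log2 change in edgeR was 1.73 ± 0.36 (adjusted p = 0.0112) in females and 2.24 ± 0.39 (adjusted p = 0.00231) in males. Ccl4, its close relative, had 1.97, 0.898 and 1.75 CPM in female PRL, against 0.0913, 0.438 and 0.187 CPM in female Veh. For Ccl4 these arms did not overlap, with a log2 change of 2.62 ± 0.54 (adjusted p = 0.0111) in edgeR. In males Ccl4 had 41 reads in male PRL and 1 in male Veh, a ratio of 38.9 with a 95% interval of 6.60 to 1570 (counting error only). Ccl5 had 2.24, 0.898 and 1.94 CPM in female PRL, against 0.0913, 0.175 and 0.187 CPM in female Veh. That is 54 reads in female PRL and 5 in female Veh, a ratio of 11.3 with a 95% interval of 4.57 to 36.3, and in males Ccl5 had 47 reads in male PRL and 3 in male Veh, a ratio of 14.9 with a 95% interval of 4.78 to 74.6. Both sexes passed for Ccl4 (edgeR adjusted p = 0.0111 in females and 0.00142 in males) and for Ccl5 (adjusted p = 0.00632 and 0.00357). In females the call of Ccl3 was lost in 4 of 13 alternatives and that of Ccl4 in 2 of 12.

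The monocyte attractants Ccl2, Ccl7 and Ccl12, ligands of Ccr2, passed in males alone. Ccl2, the main monocyte attractant, had 20.6, 14.9 and 29.0 CPM in female PRL, against 28.2, 27.0 and 28.4 CPM in female Veh. Male Ccl2 levels were 26.6, 36.1 and 42.5 CPM in PRL, against 9.50, 18.1 and 21.2 CPM in Veh. The arms of Ccl2 overlapped in females but not in males, and its log2 change in edgeR was -0.38 ± 0.29 (adjusted p = 0.511) in females and 1.13 ± 0.29 (adjusted p = 0.017) in males. The male call of Ccl2 was lost in 1 of 13 alternatives, without PRL replicate 3 (edgeR adjusted p = 0.0684). Ccl12, a mouse relative of Ccl2, had 0.895, 1.995 and 2.04 CPM in female PRL, against 0.821, 0.788 and 0.936 CPM in female Veh. Male Ccl12 levels were 3.58, 3.60 and 3.96 CPM in PRL, against 0.965, 0.291 and 0.241 CPM in Veh. The arms of Ccl12 overlapped in females but not in males, and its log2 change in edgeR was 0.94 ± 0.43 (adjusted p = 0.252) in females and 2.81 ± 0.44 (adjusted p = 0.00119) in males. Ccl7, another relative, had 27.4, 44.9 and 40.5 CPM in male PRL, against 4.90, 12.2 and 13.3 CPM in male Veh. For Ccl7 these arms did not overlap, with a log2 change of 1.92 ± 0.39 (adjusted p = 0.00515) in edgeR.

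Ligands of Ccr4 and Ccr3 also moved. Ccl22, a ligand of Ccr4 made by dendritic cells and macrophages, had 14.1, 8.98 and 23.6 CPM in female PRL, against 7.39, 6.31 and 5.81 CPM in female Veh. Male Ccl22 levels were 7.32, 7.20 and 12.4 CPM in PRL, against 3.49, 2.91 and 3.53 CPM in Veh. The arms of Ccl22 did not overlap in either sex, and its log2 change in edgeR was 1.25 ± 0.31 (adjusted p = 0.0299) in females and 1.45 ± 0.34 (adjusted p = 0.0106) in males. The female call of Ccl22 was lost in 6 of 13 alternatives. Ccl17, the other ligand of Ccr4, had 3.18, 3.07 and 7.91 CPM in male PRL, against 0.223, 0.583 and 1.44 CPM in male Veh. For Ccl17 these arms did not overlap, with a log2 change of 2.64 ± 0.76 (adjusted p = 0.0287) in edgeR. Ccl24, an eosinophil attractant, had 4.30, 11.7 and 13.6 CPM in male PRL, against 4.23, 2.33 and 3.69 CPM in male Veh. For Ccl24 these arms did not overlap, with a log2 change of 1.495 ± 0.42 (adjusted p = 0.0248) in edgeR. The male call of Ccl24 was lost in 5 of 13 alternatives and that of Ccl17 in 3 of 13.

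Of the CXC ligands, Cxcl16 passed in both sexes. Cxcl16, the membrane-bound ligand of Cxcr6, had 51.4, 36.7 and 47.2 CPM in female PRL, against 19.1, 21.1 and 17.8 CPM in female Veh. Male Cxcl16 levels were 43.0, 43.7 and 51.9 CPM in PRL, against 19.2, 14.6 and 14.4 CPM in Veh. The arms of Cxcl16 did not overlap in either sex, and its log2 change in edgeR was 1.22 ± 0.14 (adjusted p = 0.000596) in females and 1.55 ± 0.14 (adjusted p = 7.61e-05) in males. Cxcl9 and Cxcl10, interferon-induced ligands of Cxcr3, passed in males. Cxcl10, a T-cell attractant, had 7.42, 2.19 and 1.65 CPM in female PRL, against 1.46, 0.876 and 1.69 CPM in female Veh. Male Cxcl10 levels were 6.36, 5.71 and 6.78 CPM in PRL, against 0.520, 0.291 and 0.401 CPM in Veh. The arms of Cxcl10 overlapped in females but not in males, and its log2 change in edgeR was 1.48 ± 0.50 (adjusted p = 0.105) in females and 3.90 ± 0.58 (adjusted p = 0.000877) in males. Cxcl9 had 5.33, 4.13 and 3.48 CPM in male PRL, against 0.0742, 0.437 and 0 CPM in male Veh. That is 151 reads in male PRL and 4 in male Veh, a ratio of 35.8 with a 95% interval of 13.7 to 133 (edgeR adjusted p = 0.00497).

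Neutrophil attractants that act on Cxcr2 passed in males. Cxcl5, a product of epithelia and other tissue cells, had 11.6, 2.69 and 5.34 CPM in female PRL, against 2.28, 6.75 and 6.74 CPM in female Veh. Male Cxcl5 levels were 11.9, 12.8 and 13.5 CPM in PRL, against 0.520, 1.75 and 1.84 CPM in Veh. The arms of Cxcl5 overlapped in females but not in males, and its log2 change in edgeR was 0.32 ± 0.51 (adjusted p = 0.783) in females and 3.30 ± 0.58 (adjusted p = 0.00254) in males. Cxcl2, a product of macrophages, had 15.1, 6.58 and 8.63 CPM in female PRL, against 5.66, 5.96 and 11.4 CPM in female Veh. Male Cxcl2 levels were 24.8, 8.95 and 16.8 CPM in PRL, against 1.56, 2.62 and 4.17 CPM in Veh. The arms of Cxcl2 overlapped in females but not in males, and its log2 change in edgeR was 0.39 ± 0.46 (adjusted p = 0.689) in females and 2.65 ± 0.50 (adjusted p = 0.00384) in males. Cxcl3, a relative of Cxcl2, had 4.85, 0.527 and 5.65 CPM in male PRL, against 0.297, 0.437 and 0.561 CPM in male Veh. For Cxcl3 these arms overlapped, with a log2 change of 3.12 ± 0.80 (adjusted p = 0.0166) in edgeR, and the call was lost in 3 of 12 alternatives. Cxcl1, a further one, did not pass in either sex, at -0.27 ± 0.61 (adjusted p = 0.851) in females and 0.40 ± 0.66 (adjusted p = 0.698) in males in edgeR.

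**Figure D3:**
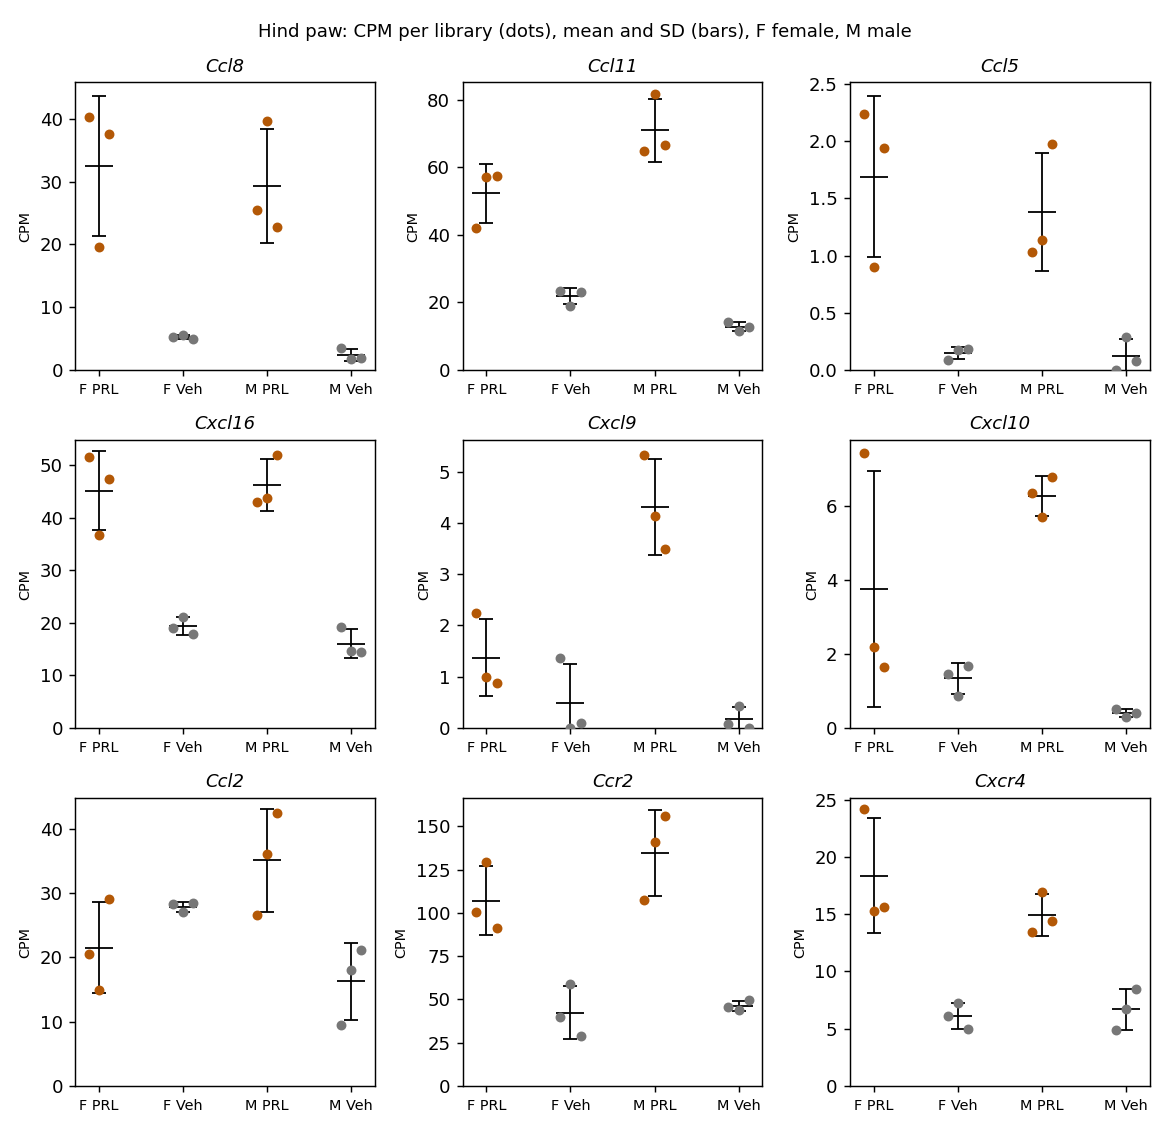
CPM of 9 members in each paw library (dots) with mean and SD, PRL left of Veh in each sex (F female, M male). The PRL dots of Ccl8, Ccl11, Ccl5, Cxcl16, Ccr2 and Cxcr4 all lie above the Veh dots of the same sex.

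Among receptors, Ccr2, Ccr1, Ccr3, Cxcr4 and Xcr1 were higher in both sexes. Ccr2 and Cxcr4 kept their calls in all 13 alternatives in each sex. In females the call of Ccr1 was lost in 4 of 13 alternatives and that of Ccr3 in 3 of 13. Ccr2, the monocyte receptor of Ccl2, had 100.4, 129 and 91.0 CPM in female PRL, against 39.5, 58.8 and 28.6 CPM in female Veh. Male Ccr2 levels were 107, 141 and 156 CPM in PRL, against 45.7, 43.7 and 49.6 CPM in Veh. The arms of Ccr2 did not overlap in either sex, and its log2 change in edgeR was 1.34 ± 0.22 (adjusted p = 0.00335) in females and 1.56 ± 0.22 (adjusted p = 0.000717) in males.

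Ccr1, a receptor of Ccl3, Ccl6 and Ccl9, had 26.4, 18.3 and 15.4 CPM in female PRL, against 10.5, 13.2 and 10.1 CPM in female Veh. Male Ccr1 levels were 32.6, 30.1 and 34.5 CPM in PRL, against 13.0, 11.8 and 14.2 CPM in Veh. The arms of Ccr1 did not overlap in either sex, and its log2 change in edgeR was 0.82 ± 0.18 (adjusted p = 0.0164) in females and 1.34 ± 0.18 (adjusted p = 0.000451) in males. Ccr3, the eosinophil receptor of Ccl11, had 5.64, 4.29 and 1.94 CPM in female PRL, against 0.548, 0.438 and 0.936 CPM in female Veh, without overlap, a log2 change of 2.61 ± 0.59 (adjusted p = 0.0197) in edgeR. In males Ccr3 had 141 reads in male PRL and 5 in male Veh, a ratio of 26.8 with a 95% interval of 11.2 to 83.7 (edgeR adjusted p = 0.00142). Xcr1, a receptor of cross-presenting dendritic cells, had 39 reads in female PRL and 4 in female Veh, a ratio of 10.2 with a 95% interval of 3.69 to 39.4. Male Xcr1 counts were 34 reads in male PRL and 3 in male Veh, a ratio of 10.8 with a 95% interval of 3.38 to 54.7. Its adjusted p in edgeR was 0.0338 in females and 0.02 in males. The call of Xcr1 was lost in 6 of 12 alternatives in females and in 4 of 12 in males.

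Ccr4, a receptor of helper T cells, had 1.75, 2.37 and 1.60 CPM in male PRL, against 0.742, 0.291 and 0.802 CPM in male Veh. For Ccr4 these arms did not overlap, with a log2 change of 1.56 ± 0.35 (adjusted p = 0.00892) in edgeR. Cxcr6, the receptor of Cxcl16, had 2.47, 3.51 and 1.88 CPM in male PRL, against 0.742, 1.17 and 0.802 CPM in male Veh. For Cxcr6 these arms did not overlap, with a log2 change of 1.61 ± 0.37 (adjusted p = 0.0102) in edgeR. Ccr9, a gut-homing receptor of lymphocytes, had 1.83, 4.65 and 6.12 CPM in male PRL, against 8.31, 8.01 and 10.3 CPM in male Veh. For Ccr9 these arms did not overlap, with a log2 change of -1.08 ± 0.32 (adjusted p = 0.0324) in edgeR. Ccr9 was the single member lower with PRL in paw. Its male call was lost in 6 of 13 alternatives, with an edgeR adjusted p of up to 0.101, and 5 of these each left out 1 library: PRL replicate 1 or 2, or any of the Veh libraries.

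Further members passed on the paw average of the sexes alone: Ccr7, which guides dendritic cells to lymph nodes, at 1.88 ± 0.45 (adjusted p = 0.0105), Cx3cr1 at 0.96 ± 0.28 (adjusted p = 0.0264) and Cxcl13, an attractant of B lymphocytes, at 2.65 ± 0.77 (adjusted p = 0.0268) in edgeR. The calls of Cx3cr1 and Cxcl13 were each lost in 7 of 18 alternatives, and that of Ccr7 was kept in all 18.

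The Cxcl12 axis joins 1 ligand to Cxcr4 and Cxcr7. Cxcl12, a ligand made by stromal cells, had 348, 263 and 323 CPM in female PRL, against 281, 272 and 208 CPM in female Veh. Male Cxcl12 levels were 262, 265 and 299 CPM in PRL, against 216, 169 and 196 CPM in Veh. The arms of Cxcl12 overlapped in females but not in males, and its log2 change in edgeR was 0.29 ± 0.13 (adjusted p = 0.228) in females and 0.54 ± 0.13 (adjusted p = 0.013) in males. The male call of Cxcl12 was lost in 2 of 13 alternatives, without PRL replicate 3 or without Veh replicate 2 (edgeR adjusted p of up to 0.0564). Cxcr4, its signalling receptor on leukocytes, had 24.2, 15.3 and 15.6 CPM in female PRL, against 6.12, 7.27 and 4.96 CPM in female Veh. Male Cxcr4 levels were 13.4, 16.9 and 14.4 CPM in PRL, against 4.90, 6.70 and 8.42 CPM in Veh. The arms of Cxcr4 did not overlap in either sex, and its log2 change in edgeR was 1.58 ± 0.23 (adjusted p = 0.0016) in females and 1.19 ± 0.23 (adjusted p = 0.00419) in males. Cxcr7, its scavenger receptor, had 86.3, 88.9 and 96.1 CPM in female PRL, against 66.0, 62.8 and 73.9 CPM in female Veh. Male Cxcr7 levels were 68.2, 72.9 and 78.6 CPM in PRL, against 70.5, 48.2 and 59.7 CPM in Veh. The arms of Cxcr7 overlapped in males but not in females, and its log2 change in edgeR was 0.42 ± 0.11 (adjusted p = 0.0459) in females and 0.33 ± 0.11 (adjusted p = 0.0602) in males. The female call of Cxcr7 was lost in 9 of 13 alternatives, among them each of the 6 libraries left out, with an adjusted p of up to 0.189.

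The Cx3cl1 axis did not pass in either sex. Cx3cl1, a membrane-bound ligand, had 31.8, 21.3 and 28.2 CPM in female PRL, against 28.5, 32.5 and 30.6 CPM in female Veh. Male Cx3cl1 levels were 16.9, 24.6 and 22.2 CPM in PRL, against 32.6, 26.8 and 24.8 CPM in Veh. The arms of Cx3cl1 overlapped in females but not in males, and its log2 change in edgeR was -0.17 ± 0.15 (adjusted p = 0.575) in females and -0.38 ± 0.15 (adjusted p = 0.0976) in males. Cx3cr1, its receptor on monocytes and macrophages, had 8.05, 9.58 and 2.62 CPM in female PRL, against 4.65, 3.94 and 2.72 CPM in female Veh. Male Cx3cr1 levels were 7.08, 8.34 and 13.3 CPM in PRL, against 4.23, 4.95 and 4.57 CPM in Veh. The arms of Cx3cr1 overlapped in females but not in males, and its log2 change in edgeR was 0.84 ± 0.40 (adjusted p = 0.27) in females and 1.09 ± 0.39 (adjusted p = 0.0662) in males.

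Ligands and receptors were then paired by their known binding. Of the 19 receptors, 15 could be tested in paw. In female paw 7 were higher, 4 of them with at least 1 ligand higher, and in male paw 8 were, 7 of them with a ligand higher. A ligand was also higher for 3 receptors that were not called in females and for 5 in males. In males 20 of 26 tested ligands were higher, and some ligands count for several receptors. These counts therefore do not show that receptors and their ligands changed together. Ccr1 was higher with 6 of 7 ligands in females and 7 of 7 in males. Ccr2 was higher with 1 of 4 ligands (Ccl8) in females and with 4 of 4 in males. Ccl8 was also paired with Ccr8, which had too few reads to be tested in paw. The mean of Ccr8 was 0.350 CPM in female paw PRL, against 0.119 CPM in female paw Veh. Xcr1 was higher although its ligand Xcl1 had few reads, and in males Cxcr3 did not pass although Cxcl9 and Cxcl10 did.

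Genes of chemokine signalling were counted beside the members. Of genes that act behind the receptors, 22 of 41 were higher and 0 lower in female paw and 20 of 41 were higher and 1 lower in male paw. Among them Prex1, a Rac activator of leukocytes, changed by 0.89 ± 0.09 (adjusted p = 0.00022) in females and 0.77 ± 0.09 (adjusted p = 0.000171) in males in edgeR. Of NF-kB and interferon regulators, 6 of 18 were higher and 0 lower in females and 14 of 18 were higher and 0 lower in males. Irf1, an interferon-induced factor, changed by 1.02 ± 0.18 (adjusted p = 0.00532) in females and 1.86 ± 0.19 (adjusted p = 0.000118) in males in edgeR. Of chemokine family genes outside the rule, 0 of 8 were higher and 1 lower in females and 2 of 8 were higher and 0 lower in males. Ccrl1, a scavenger receptor, had -0.90 ± 0.15 (adjusted p = 0.00382) in females, and Ccrl2, a chemokine-like receptor, 1.99 ± 0.36 (adjusted p = 0.0031) in males in edgeR.

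Cell type markers moved with these genes. Of macrophage markers, 15 of 16 were higher and 0 lower in female paw and 14 of 16 were higher and 1 lower in male paw. Macrophage markers summed to 2453 to 3619.6 CPM in female PRL, against 819.9 to 1114 CPM in female Veh, and to 2400.2 to 2986 CPM in male PRL, against 894 to 1415 CPM in male Veh. Of neutrophil markers, 1 of 7 were higher and 0 lower in females and 5 of 7 were higher and 0 lower in males. On the paw average of the sexes 7 of 7 were higher, and 0 passed for the difference between the sexes. Neutrophil markers summed to 65.9 to 143 CPM in female PRL, against 30.8 to 51.1 CPM in female Veh. In males they summed to 113, 127 and 512 CPM in PRL, against 12.5 to 48.8 CPM in Veh. Elane, a marker of immature neutrophils, had no read in male PRL or female Veh paw, and no macrophage marker was at 0 in any paw group. Of T, B and NK cell markers, 4 of 7 were higher and 0 lower in females and 4 of 7 were higher and 0 lower in males. The dendritic list, which includes Xcr1 itself, had 5 of 9 higher and 0 lower in females and 6 of 9 higher and 0 lower in males. Fibroblast markers had 5 of 9 higher and 0 lower in females and summed to 21083 to 30349.5 CPM in female PRL, against 8046 to 10574 CPM in female Veh. Keratinocyte markers had 0 of 9 higher and 0 lower in females and 0 of 9 higher and 4 lower in males. Fewer cells of a type and less RNA per cell cannot be told apart in bulk tissue, and the part of these markers in the member changes was not tested.

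Whether the paw response differed between the sexes was tested directly. No member passed for female minus male in edgeR (12 at an unadjusted p under 0.05), where 0.00679% of all genes were called. DESeq2 called 4 (Ccl11, Ccl2, Cxcl2 and Cxcl5). The DESeq2 share of all genes is not given, and the edgeR share does not stand for it. Closest in edgeR were Ccl11 at -1.22 ± 0.20 (adjusted p = 0.205), Cxcl5 at -2.98 ± 0.78 (adjusted p = 0.205) and Ccl2 at -1.51 ± 0.41 (adjusted p = 0.205), all with a smaller or opposite change in females. Between female Veh and male Veh paw, 0 passed in edgeR (11 at an unadjusted p under 0.05), where 0.109% of all genes were called (0.0408% higher, 0.0679% lower). DESeq2 called Ccl11, again without a share of all genes. The closest in edgeR were Ccr4 at 1.67 ± 0.35 (adjusted p = 0.146), Ccl11 at 0.67 ± 0.15 (adjusted p = 0.174) and Cxcl5 at 1.91 ± 0.61 (adjusted p = 0.407).

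In DRG, the ligand Cxcl12 and its receptor Cxcr4 were the members called, and only on the average of the sexes. Within a sex no member passed in edgeR, where 0.653% of all genes were called in females (0.292% higher, 0.36% lower) and 0.517% in males (0.286% higher, 0.231% lower). At an unadjusted p under 0.05 there were 4 members in females and 5 in males. DESeq2 called Cxcl12 in females and Cxcr2 in males, and its share of all genes is not given. On the average 2 of 22 were higher and 0 lower, where 3.6% of all genes were called (2.14% higher, 1.47% lower). Cxcl12, the stromal ligand, had 118, 101 and 95.9 CPM in female PRL, against 75.9, 74.4 and 79.6 CPM in female Veh. Male Cxcl12 levels were 96.6, 85.3 and 95.9 CPM in PRL, against 63.3, 67.8 and 88.7 CPM in Veh. The arms of Cxcl12 overlapped in males but not in females, and its log2 change in edgeR was 0.47 ± 0.11 (adjusted p = 0.1) in females and 0.33 ± 0.11 (adjusted p = 0.213) in males. Cxcr4, its receptor, had 21.6, 25.4 and 21.1 CPM in female PRL, against 14.7, 17.1 and 16.8 CPM in female Veh. Male Cxcr4 levels were 17.7, 16.9 and 24.9 CPM in PRL, against 13.7, 15.7 and 15.97 CPM in Veh. The arms of Cxcr4 did not overlap in either sex, and its log2 change in edgeR was 0.51 ± 0.14 (adjusted p = 0.167) in females and 0.39 ± 0.14 (adjusted p = 0.241) in males. The average log2 change in edgeR was 0.40 ± 0.08 (adjusted p = 0.0163) for Cxcl12 and 0.45 ± 0.10 (adjusted p = 0.0286) for Cxcr4. With the muscle marker level as a covariate, or without female Veh replicate 2, 0 were called on the average, and without male PRL replicate 2 there were 4. Cxcl12 alone was called without female PRL replicate 1 or 2, female Veh replicate 3, or male Veh replicate 1 or 3. Muscle markers in female DRG summed to 655 to 27524 CPM in PRL, against 332 to 1578 CPM in Veh. Of fibroblast markers, 4 of 9 were higher and 0 lower on the DRG average. They summed to 5515 to 7587 CPM in female PRL, against 3191 to 4887 CPM in female Veh, and to 4416 to 5430.1 CPM in male PRL, against 2523 to 3581 CPM in male Veh. Their part in the Cxcl12 and Cxcr4 values was not tested.

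Cxcr2, the neutrophil receptor, came next on the DRG average at 1.54 ± 0.43 (adjusted p = 0.0707) and had the smallest p of males at 2.26 ± 0.63 (adjusted p = 0.131) in edgeR. Ccl7 in males was at 1.66 ± 0.59 (adjusted p = 0.231). Cxcr7 had 15.1, 20.1 and 22.1 CPM in female PRL, against 33.4, 18.3 and 15.8 CPM in female Veh, and its average change was -0.09 ± 0.19 (adjusted p = 0.831) in edgeR.

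Female DRG Veh replicate 1 stood apart for interferon-induced and monocyte ligands. Cxcl9 had 0.620, 0.714 and 2.25 CPM in female PRL, against 28.4, 2.13 and 1.17 CPM in female Veh. Cxcl10 had 1.96, 1.70 and 3.21 CPM in female PRL, against 24.2, 3.61 and 2.25 CPM in female Veh. Ccl12 had 1.45, 0.625 and 1.60 CPM in female PRL, against 4.85, 0.492 and 0.489 CPM in female Veh. In each gene the first Veh library was the highest of the 6. The macrophage markers of that library summed to 761.6 CPM and the members to 357.7 CPM, and their part was not tested. The female log2 change of Cxcl9 in edgeR was -3.13 ± 1.05 (adjusted p = 0.255) with that library and -0.49 ± 0.68 (adjusted p = 0.754) without it. Without it Cx3cr1 passed in females at 0.82 ± 0.14 (adjusted p = 0.0178), against 0.44 ± 0.22 (adjusted p = 0.447) with it. Also without it, 5 members were higher on the average: Ccl11, Ccl7, Cx3cr1, Cxcl12 and Cxcr4. The share of all genes called without that library is not given.

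**Figure D4:**
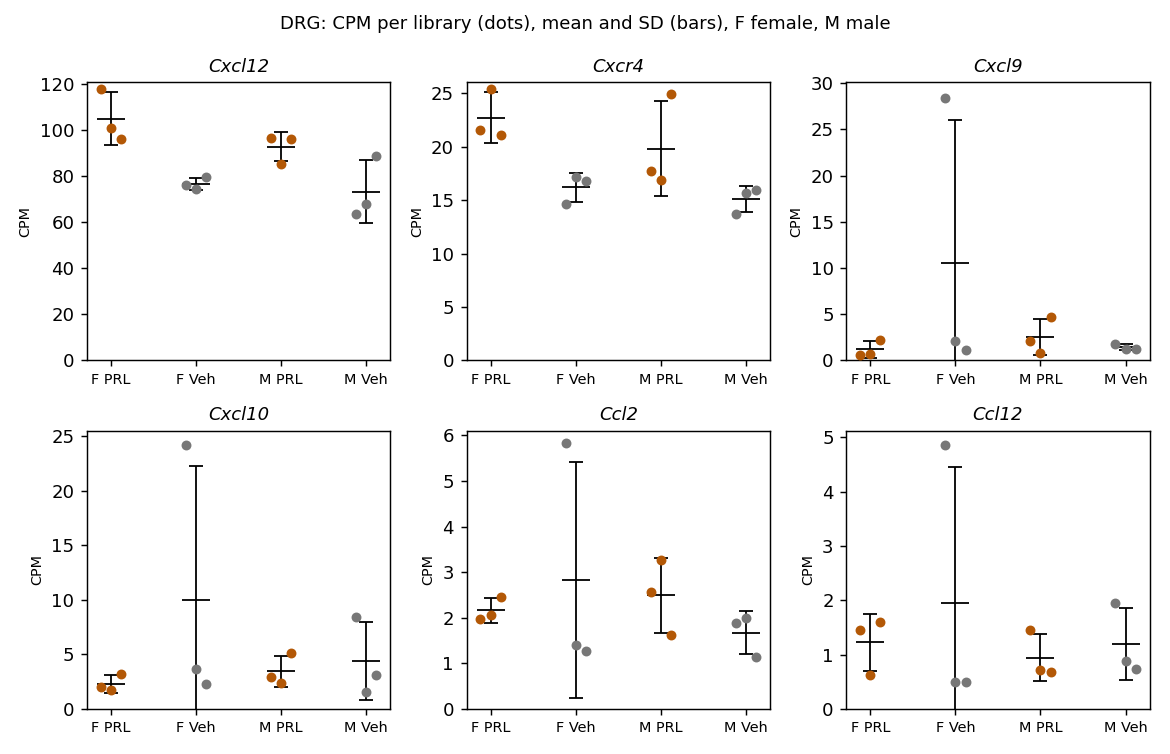
CPM of 6 members in each DRG library (dots) with mean and SD, PRL left of Veh in each sex (F female, M male). In female Veh the single high dot of Cxcl9, Cxcl10, Ccl2 and Ccl12 is replicate 1.

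The neuron-linked pairs did not pass in DRG. Cx3cl1, the ligand of neurons, had 8.89, 8.57 and 9.62 CPM in female PRL, against 10.5, 9.10 and 7.82 CPM in female Veh. Male Cx3cl1 levels were 10.2, 6.96 and 8.14 CPM in PRL, against 7.43, 8.23 and 8.30 CPM in Veh. The arms of Cx3cl1 overlapped in both sexes, and its log2 change in edgeR was 0.0036 ± 0.15 (adjusted p = 0.994) in females and 0.07 ± 0.15 (adjusted p = 0.859) in males. Cx3cr1, its macrophage and microglia receptor, had 15.5, 13.4 and 14.4 CPM in female PRL, against 16.1, 8.36 and 8.11 CPM in female Veh. Male Cx3cr1 levels were 14.9, 12.0 and 11.2 CPM in PRL, against 9.38, 9.68 and 9.65 CPM in Veh. The arms of Cx3cr1 overlapped in females but not in males, and its log2 change in edgeR was 0.44 ± 0.22 (adjusted p = 0.447) in females and 0.40 ± 0.22 (adjusted p = 0.422) in males. Ccl2, the monocyte attractant, had 1.96, 2.05 and 2.46 CPM in female PRL, against 5.82, 1.39 and 1.27 CPM in female Veh. Male Ccl2 levels were 2.56, 3.27 and 1.63 CPM in PRL, against 1.88, 2.003 and 1.14 CPM in Veh. The arms of Ccl2 overlapped in both sexes, and its log2 change in edgeR was -0.35 ± 0.51 (adjusted p = 0.815) in females and 0.55 ± 0.53 (adjusted p = 0.673) in males. Ccr2, its receptor, had 25.4, 20.7 and 18.3 CPM in female PRL, against 26.7, 16.5 and 14.1 CPM in female Veh. Male Ccr2 levels were 33.0, 13.3 and 20.01 CPM in PRL, against 10.5, 18.4 and 16.5 CPM in Veh. The arms of Ccr2 overlapped in both sexes, and its log2 change in edgeR was 0.20 ± 0.31 (adjusted p = 0.834) in females and 0.55 ± 0.32 (adjusted p = 0.443) in males. For the difference of the DRG response between the sexes 0 of 22 passed in edgeR (1 at an unadjusted p under 0.05, DESeq2 0), where 0% of all genes were called, with Cxcl9 closest at -3.94 ± 1.54 (adjusted p = 0.993), then Cxcr2 at -1.45 ± 0.86 (adjusted p = 0.993) and Ccl25, a ligand of Ccr9, at -0.65 ± 0.43 (adjusted p = 0.993). Between female and male Veh DRG 0 passed (3 at an unadjusted p under 0.05, DESeq2 0), where 0.0544% of all genes were called (0.0204% higher, 0.034% lower), with Cxcl9 closest at 2.81 ± 1.01 (adjusted p = 0.704), then Ccl7 at 1.40 ± 0.59 (adjusted p = 0.704) and Cxcr7 at 0.63 ± 0.27 (adjusted p = 0.704). Of the regulator list, 0 of 16 were higher and 1 lower in female DRG with PRL, the lower one being Nfkbia, an inhibitor of NF-kB, at -0.79 ± 0.15 (adjusted p = 0.034) in edgeR.

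Whether the change with PRL differed between paw and DRG was tested on the 24 libraries together. In females 6 members had a higher change in paw and 0 a lower one, where 3.4% of all genes were called (2.97% higher, 0.433% lower). In males 7 had a higher and 1 a lower one, where 10.9% of all genes were called (6.32% higher, 4.57% lower). These counts hold Ccl8 in both sexes and Ccr9 in males, which had too few reads for the DRG fit and entered through their paw reads. In DRG, Ccl8 had 0.556, 0.102 and 0 CPM in male PRL, against 0.225, 0.668 and 0.207 CPM in male Veh. Their difference between tissues is not read as a result. Of the 22 members that could be tested in both tissues, 5 had a higher change in paw in females, where 3.14% of the 14705 such genes did, and 6 in males, where 6.77% did. None of the 22 had a lower one. Cxcl16, for instance, differed by 1.53 ± 0.34 (adjusted p = 0.0153) in females and 1.32 ± 0.35 (adjusted p = 0.0202) in males on the log2 scale in edgeR. In females the count of 6 was 1 with the muscle covariate and 1 when only these groups were fitted, and it ran from 2 to 7 over libraries left out.

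PRL_Sh was compared with PRL in females, and the library kits of these groups differ. Wdfy1 separated them too, at 23.5 to 27.5 CPM in paw PRL_Sh, against 53.8 to 59.7 CPM in paw PRL, and at 25.6 to 30.3 CPM in DRG PRL_Sh, against 83.8 to 88.4 CPM in DRG PRL. Kit, this difference and group cannot be told apart. In paw 2 of 37 tested members were higher and 24 lower, where 58.5% of all genes were called, 29.4% higher and 29% lower. Ccl8 had 1.85, 2.48 and 3.98 CPM in PRL_Sh, against 40.3, 19.7 and 37.5 CPM in PRL. The groups of Ccl8 did not overlap, with a log2 change of -3.56 ± 0.37 (adjusted p = 0.000295) in edgeR. Other large log2 decreases were those of Ccr3, Ccl24, Ccr2, Ccr7, Cxcl2 and Cxcl1, which in PRL_Sh fell by 4.81, 3.21, 3.21, 2.92, 2.82 and 2.80 in that order. Ccl5 and Cxcl17, a mucosal chemokine, were higher by 1.29 ± 0.32 (adjusted p = 0.0111) and 1.97 ± 0.46 (adjusted p = 0.00843). Macrophage markers summed to 539.7 to 604 CPM in PRL_Sh, against 2453 to 3619.6 CPM in PRL, and their part was not tested. With the muscle marker level as a covariate 17 members were called in paw, and Ccr7 (adjusted p = 0.17) and Cxcl1 (adjusted p = 0.266) no longer passed in edgeR.

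In DRG 1 of 27 members was higher in PRL_Sh (Ccr10, a receptor of skin-homing T cells) and 10 were lower, where 61.6% of all genes were called, 29.3% higher and 32.3% lower. The share of members called lay under that of all genes. Cxcr4 had 13.9, 12.7 and 14.3 CPM in PRL_Sh, against 21.6, 25.4 and 21.1 CPM in PRL, without overlap, a log2 change of -0.97 ± 0.10 (adjusted p = 0.000126) in edgeR. Ccr2 changed by -1.24 ± 0.15 (adjusted p = 0.000213) and Ccr1 by -1.38 ± 0.23 (adjusted p = 0.00132). The largest changes were those of Ccr9 at -1.74 ± 0.58 (adjusted p = 0.0309), Cxcr2 at -1.69 ± 0.39 (adjusted p = 0.0064) and Cxcl1 at -1.53 ± 0.38 (adjusted p = 0.00885). Ccr9 was low in both groups, with a mean of 0.259 CPM in PRL_Sh, against 0.733 CPM in PRL. Ccl7 was at -1.19 ± 0.24 (adjusted p = 0.00351) and Ccr10 at 1.07 ± 0.34 (adjusted p = 0.0247). The call of Ccr9 was lost in 5 of 8 alternatives and that of Ccr10 in 5 of 9.

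Between tissues, Veh paw was compared with Veh DRG over both sexes. In paw 26 of 41 members were higher and 7 lower, where 85.4% of all genes were called, 43.2% higher and 42.3% lower. Cxcl14 was higher by 6.46 ± 0.23 (adjusted p = 2.03e-16) in edgeR. The neutrophil attractants Cxcl2, Cxcl1 and Cxcl5 were higher by 5.77 ± 0.55 (adjusted p = 4.04e-09), 4.81 ± 0.57 (adjusted p = 1.22e-07) and 4.76 ± 0.65 (adjusted p = 8.51e-07). Cxcl3 had 49 reads in Veh paw and 0 in Veh DRG, so it was at least 16-fold higher in paw (3 reads over the DRG group). Ccr9 was higher by 4.27 ± 0.27 (adjusted p = 3.75e-12). Cxcl11, an interferon-induced ligand of Cxcr3, changed by -4.88 ± 0.48 (adjusted p = 1.88e-08) and Cxcl9 by -3.86 ± 0.95 (adjusted p = 0.000838), both lower in paw. Cxcl9 had 0.0742, 0.437 and 0 CPM in male Veh paw, against 1.80, 1.22 and 1.24 CPM in male Veh DRG. In the same comparison Cxcl12 changed by 1.60 ± 0.09 (adjusted p = 4.19e-13) and Cxcr7 by 1.87 ± 0.15 (adjusted p = 3.18e-10), both higher in paw, while Cxcr4 changed by -1.25 ± 0.15 (adjusted p = 7.85e-08) and Cx3cr1 by -1.25 ± 0.24 (adjusted p = 6.6e-05), both lower in paw.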

How the data were processed

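RNA was sequenced in 30 libraries with 500 ng of input and single reads of 50 nt, per the labels' protocols. The deposited values are raw read counts of 22609 genes with 5 summary lines, which stayed out of library sizes. Per the submitters' processing notes, the authors used bcl2fastq, TopHat2 and HTSeq with mm9. Versions, counting mode and strand were not given in the sources read. Labels list 18 female and 12 male libraries, and the design text the reverse.

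The count test was that of edgeR 4.0.16 under R 4.3.3 (filterByExpr, TMM, quasi-likelihood F test, Benjamini-Hochberg over all tested genes, threshold 0.05). The PRL and Veh groups of a tissue shared a fit, PRL_Sh was fitted with PRL, and tissues were compared over 24 libraries. CPM are not scaled by TMM. Errors of log2 changes are SE worked back from the test, as the absolute log2 change over the square root of F. They are approximate for genes of few reads. Members, lists, pairs and motifs were chosen with earlier results of these data known. By rule the text names members past the threshold with PRL (up to 20 per comparison by p), the Cxcl12, Cx3cl1 and Ccl2 axes, the largest changes between tissues or kits (up to 8), and the 3 smallest p where fewer passed; some are given for part of the groups. Of the members counted, 1 is not reported here by itself. Other settings tried were RLE scaling, DESeq2 1.42.0, no filter, 1 CPM in 3 libraries, only the groups compared, a replicate block, a muscle covariate and each library left out. The code was tested on simulated data. Exon lengths come from GRCm38, and its coordinates were not joined to the mm9 counts.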

Additional observations from a re-analysis of the deposited data

Results flagged for a closer look

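For several members with enough reads to be tested in each tissue, the PRL over Veh change differed between paw and DRG by a test of the difference itself (log2, paw minus DRG, edgeR quasi-likelihood test with Benjamini-Hochberg adjustment). In females the change in paw differed from that in DRG for Ccl6 by 1.54 (adjusted p = 0.0441), Ccl9 by 1.46 (adjusted p = 0.0491), Cxcl16 by 1.53 (adjusted p = 0.0153), Cxcr4 by 1.09 (adjusted p = 0.0334). In males it differed for Ccl11 by 2.26 (adjusted p = 0.000103), Ccl12 by 3.24 (adjusted p = 0.0434), Ccl9 by 1.76 (adjusted p = 0.0135), Cxcl10 by 4.32 (adjusted p = 0.0252), Cxcl16 by 1.32 (adjusted p = 0.0202). Positive values mean a higher change in paw. Of the calls listed here, only those of Ccl11 and Ccl9 in males were kept under every alternative that was run. Macrophage markers were also higher with PRL in paw, and their part in these differences was not tested.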

How the results depend on the processing

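Called members kept in every alternative that tested them numbered 9 of 16 in female paw, 22 of 29 in male paw, 27 of 32 on the paw average and 0 of 2 on the DRG average. Fitting only the groups compared gave 9 calls in female paw and 1 in the female tissue difference. DESeq2 gave 1 in female DRG, 1 in male DRG, 4 on the DRG average, 4 for the paw sex difference and 1 between Veh paws. Shares of all genes are given for the main edgeR fits alone, and calls under other settings are not set against them. The muscle covariate gave 0 on the DRG average, 17 for paw PRL_Sh and 1 for the female tissue difference. Over libraries left out, counts were 0 to 1 in female DRG, 0 to 0 in male DRG, 0 to 5 on the DRG average (5 without female Veh replicate 1, 0 without female Veh replicate 2), 9 to 16 in female paw (9 without PRL replicate 1, 10 if Veh replicate 3 was dropped), 24 to 28 in male paw, 27 to 31 on the paw average, 0 to 1 for the paw sex difference, 8 to 11 for DRG PRL_Sh, 25 to 28 for paw PRL_Sh, 30 to 35 between tissues, and 2 to 7 (females) and 5 to 8 (males) for the tissue difference. The cause was not tested. Uncalled DRG log2 changes changed sign: over libraries left out they were -0.69 to 0.70 for Ccl2 (female), -0.0892 to 0.10 for Cx3cl1 (female), -0.40 to 0.18 for Cxcr7 (female), -0.0791 to 0.19 for Cx3cl1 (male), -0.18 to 0.25 for Cxcr7 (male), -0.0695 to 0.63 for Ccl2 (average), -0.0375 to 0.096 for Cx3cl1 (average), -0.20 to 0.10 for Cxcr7 (average), and with the muscle covariate 0.013 for Cxcr7 (average). Replicate numbers did not pair the libraries, and the replicate block gave 16 calls in female paw, 30 in male paw and 2 on the DRG average. Genes of few reads are limited by depth.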
